A study of Drosophila melanogaster with 4 samples.

Results

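The genes described here encode the chemosensory receptors of Drosophila melanogaster. They are the protein-coding genes on the chromosome arms whose symbol is Or, Gr or Ir followed by a number and a letter. Of 13922 protein-coding genes, 179 met this rule, namely 59 odorant receptor genes (Or), 60 gustatory receptor genes (Gr) and 60 ionotropic receptor genes (Ir). They lie on 2R (46 genes), 3R (42), 3L (35), 2L (31) and X (25), and chromosome 4 holds none of them. Chromatin came from dsRed-positive nuclei sorted from embryos collected for 16 h at 25 °C. All embryos carried wor-gal4, which drives UAS-dsRed in neuroblasts, which divide to form the fly's neurons and glia. Sorting kept 0.5 to 3% of all nuclei, with a purity of at least 50%, so other embryonic cells contributed to every library. The genotypes were RNAi knockdown of Cut, a homeodomain transcription factor, and a control whose construct is not given in the sources used here. Each genotype was profiled once for H3K27me3 and once for H3K27ac, which gives 4 groups of 1 library: knockdown H3K27me3, control H3K27me3, knockdown H3K27ac and control H3K27ac. The antibody amounts were 2 µg for H3K27me3 and 1 µg for H3K27ac. The labels print the same catalogue number for both antibodies, so whether they were different reagents was not tested. With 1 library per group no difference between genotypes has a replicate check and no p-value is given.

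H3K27me3 is the mark that Polycomb repressive complex 2 places on silenced genes, and H3K27ac is an acetyl group on the same lysine at active promoters and enhancers. Odorant receptors are membrane channels of olfactory neurons that work together with the co-receptor Orco. Gustatory receptors detect sugars, bitter compounds and carbon dioxide, and some detect warmth or light. Ionotropic receptors descend from ionotropic glutamate receptors, pair with co-receptors such as Ir8a and Ir25a, and detect acids, amines, humidity and temperature. Most of these receptors are made in small sets of peripheral sensory neurons. Peak lists measure no transcript, so whether the receptor genes were silent in the sorted nuclei was not measured here.

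The knockdown H3K27me3 list held 18692 peaks over 19.5 Mb and the control list 4238 peaks over 4.68 Mb. For H3K27ac the knockdown list held 25519 peaks over 14.8 Mb and the control list 25941 over 22.2 Mb. Read numbers are unknown, and lists lengthen with depth, so unequal depth, fewer marked cells and less mark per cell cannot be told apart. Of 10 neuroblast markers, 10 had H3K27ac in the knockdown and 9 in the control, where ase had none. The markers of other cell types were marked too: 8 and 8 of 8 neuron markers, 6 and 6 of 6 glia markers, 6 and 6 of 6 muscle markers, 4 and 4 of 4 epidermis markers, and 2 and 3 of 5 sense organ precursor markers in the knockdown and the control. Over all genes 76.9 and 80.1% had H3K27ac. H3K27me3 lay on 9 and 3 of the neuroblast markers, 8 and 3 neuron, 5 and 3 glia and 6 and 5 muscle markers. It lay on 4 and 1 epidermis and 5 and 2 sense organ precursor markers, against 68.1 and 12.2% of all genes. Mean cover in the knockdown and the control was 38.1 and 1.49% on neuroblast and 12.5 and 2.25% on neuron markers. It was 53.7 and 17.9% on glia, 36.5 and 20.7% on muscle and 27.7 and 2.28% on epidermis markers. On sense organ precursor markers it was 53.8 and 10.5%, and over all genes 19.5 and 2.51%. The gene grh is in both the neuroblast and the epidermis list. The part of other cell types in the results below was not tested.

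In each of the 4 lists the share of receptor genes with a peak was below that of all protein-coding genes, and the interval holds the share of all genes for control H3K27me3 alone. A gene was counted when at least 1 bp of its dm6 span, or of the 500 bp on either side, lay inside a peak. An H3K27me3 peak touched 71 of the 179 receptor genes in the knockdown (39.7%, with a 95% Clopper-Pearson interval of 32.4 to 47.2%, exact), where 68.1% of all protein-coding genes had one. In the control it touched 16 (8.94%, 5.20 to 14.1%), against 12.2% of all genes. An H3K27ac peak touched 85 receptor genes in the knockdown (47.5%, 40.0 to 55.1%) and 111 in the control (62.0%, 54.5 to 69.1%), against 76.9 and 80.1% of all genes. The intervals cover counting error only.

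Receptor genes are short, with a median span of 1.69 kb against 2.16 kb for all genes, and 157 of them measure 1 to 3 kb. Among all 5937 protein-coding genes of that length, an H3K27me3 peak touched 63.2% in the knockdown and 5.90% in the control, and an H3K27ac peak 75.1 and 78.9%. Against genes of like length the receptor share was thus lower in 3 of the 4 lists, and for control H3K27me3 the interval of the receptor share holds the 5.90%. No peak of any list touched 48 receptor genes (26.8%, 20.5 to 33.9%), against 10.2% of all genes and 9.40% of those of 1 to 3 kb. Odorant-binding protein genes, which encode secreted carriers of odorants, stood at 13 of 51 (25.5%) without a peak. Cuticular protein genes stood at 7 of 70 and ribosomal protein genes at 5 of 88 (5.68%).

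**Figure D1:**
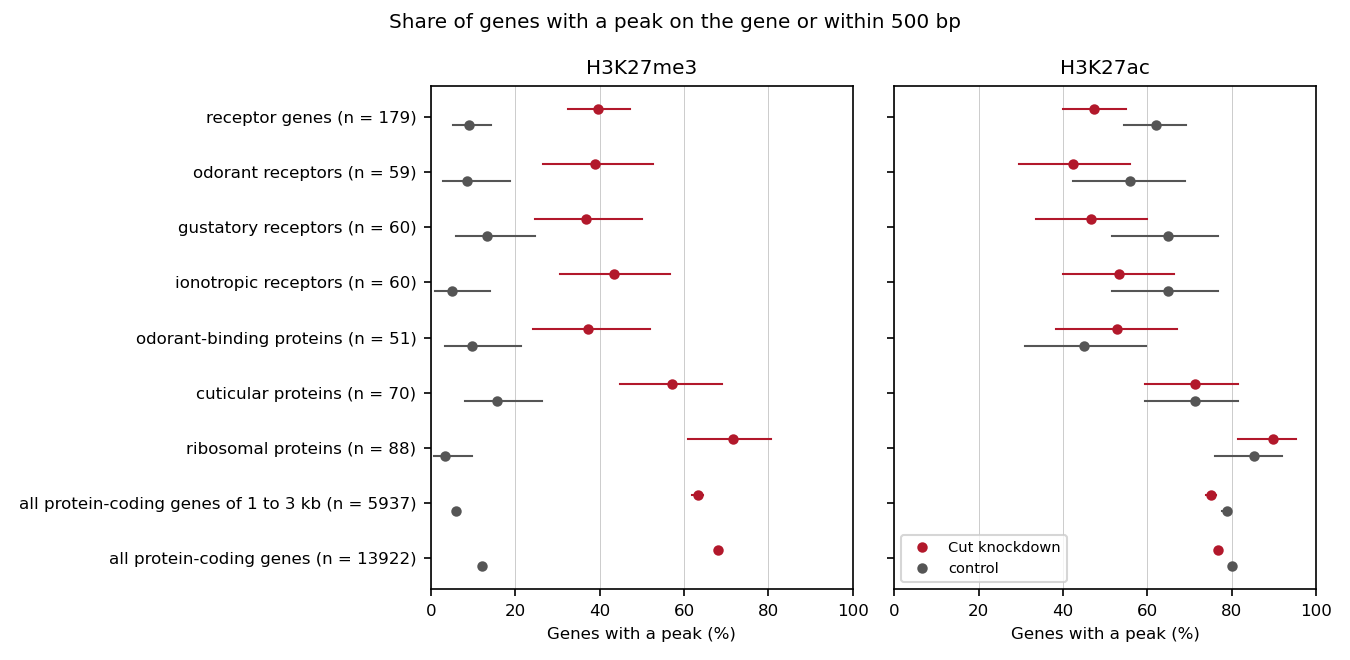
Share of genes, in percent, with a peak on the gene or within 500 bp, for H3K27me3 (left) and H3K27ac (right), with Cut knockdown in red above control in grey and 95% exact intervals as lines. Receptor genes lie at 39.7 and 8.94% for H3K27me3 and at 47.5 and 62.0% for H3K27ac, and all genes at 68.1 and 12.2% and at 76.9 and 80.1%.

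H3K27me3 lay on 65 receptor genes in the knockdown only (36.3%, 29.3 to 43.8%), where 57.3% of all genes had the mark in the knockdown only. It lay on 10 in the control only (5.59%, 2.71 to 10.03%), where the share over all genes was 1.34% and that over genes of 1 to 3 kb 1.38%. Only Gr22f, Gr85a, Ir41a, Ir92a, Or45b and Or85a were touched in both lists (3.35%, against 10.8% of all genes), and at Gr85a by no more than 19 bp in the knockdown and 5 bp in the control. In covered bases, 69 genes had more H3K27me3 in the knockdown (38.5%, against 66.0% of all genes) and 12 had less (6.70%, against 3.09%). The mean cover of a receptor gene with its flanks was 7.83% in the knockdown and 1.78% in the control, a difference of 6.06 percentage points, against 16.98 points over all genes. The direction of that difference depended on the length of the lists. After the knockdown list was trimmed from its weakest peaks until both lists covered equal lengths, it was -0.81 points, against 0.69 points over all genes. The trimmed lists left 6 receptor genes marked in the knockdown only and 15 in the control only (3.35 and 8.38%, against 7.99 and 6.56% of all genes).

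Cover of most of a receptor gene was rare. H3K27me3 covered at least 50% of the gene body of 6 genes in the knockdown (3.35%, against 15.5% of all genes) and of 2 in the control (1.12%, against 2.04%), with no gene in common. Or85a (3R:8321747-8323054), a receptor of antennal neurons tuned to fruit esters, was covered over its whole body in the knockdown. With flanks, 2.31 kb of Or85a lay in the H3K27me3 peak of the knockdown and 0.732 kb in that of the control. The gene lies within 500 bp of Poxm, a paired-box transcription factor gene of muscle development, and no other receptor gene had so much of its length marked. Its H3K27ac cover was 0.241 kb in the knockdown and 0.276 kb in the control. Body cover in the knockdown was 71.7% for Gr8a, a taste receptor for the plant toxin L-canavanine, 64.4% for Gr2a, 64.1% for Gr10b, 61.6% for Or59b, an antennal receptor for acetate esters, and 57.6% for the larval receptor Or94b. None of these 5 had an H3K27me3 peak in the control. All 5 also have a gene of another family on the span or within 500 bp of it, futsch at Gr2a among them. Of the 105 receptor genes without such a neighbour, 0 were covered to that extent in the knockdown, which allows a share of up to 3.45% by the exact interval. Over all genes, with or without neighbours, the share was 15.5%, and that over genes with no other gene in reach is not given here. The part of neighbours in this split was not tested. The 2 covered in the control, Or45b and Gr93c, have no such neighbour.

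Ir41a (2R:4917519-5021955), a receptor for polyamines, spans 104 kb toward the centromere of 2R and is the longest of the 179 genes. H3K27me3 covered 13.992 kb of it in the knockdown and 4.02 kb in the control, in 14 and 6 peaks. H3K27ac covered 7.76 kb in the knockdown and 19.7 kb in the control, in 15 and 18 peaks. Ir41a thus had more H3K27me3 and less H3K27ac in the knockdown, and it held 25.3% of all H3K27me3 bases counted on receptor genes in the knockdown and 32.8% in the control. Without it the H3K27me3 sum over receptor genes was 41.4 kb in the knockdown and 8.22 kb in the control. The next largest excesses in the knockdown were 1.65 kb at Or22c, a larval receptor with no H3K27me3 peak in the control, and 1.58 kb at Or85a. They were followed by Gr8a (1.21 kb), Gr2a (1.13 kb), Ir7g (1.07 kb), Ir60e (1.06 kb), Or59b (0.993 kb), Ir75d (0.927 kb) and Gr10b (0.917 kb).

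The 10 genes with H3K27me3 in the control only were Gr28b, Gr58c, Gr93b, Gr93c, Gr93d, Gr98a, Ir47a, Or47a, Or49a and Or92a. A single control peak at 3R:21843529-21845145, with a deposited fold of 2.00, joined Gr93b, Gr93c and Gr93d, so these 3 genes are 1 event. It covered 90.4% of the body of Gr93c and 1.62 kb with flanks. None of the 3 genes had a peak in any other list. Gr93a, a receptor needed for caffeine taste that lies apart from these 3, had H3K27me3 over 0.404 kb in the knockdown and no peak in the control. Or49a, which responds to odours of parasitoid wasps, had 0.545 kb in the control, and Or92a, a receptor for diacetyl in vinegar-sensing neurons, 0.315 kb, with no peak of either mark in the knockdown. Gr28b, whose isoforms serve warmth and light sensing, had 0.533 kb of H3K27me3 and 1.06 kb of H3K27ac in the control and neither mark in the knockdown. Or45b, a larval receptor, had peaks in all 4 lists and less H3K27me3 in the knockdown (0.543 kb) than in the control (1.18 kb), where 80.3% of its body was covered. Limited to a -log10 q of 2 or more, 1 gene remained marked by H3K27me3 in the control, Ir41a, and it had no such peak in the knockdown.

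**Figure D2:**
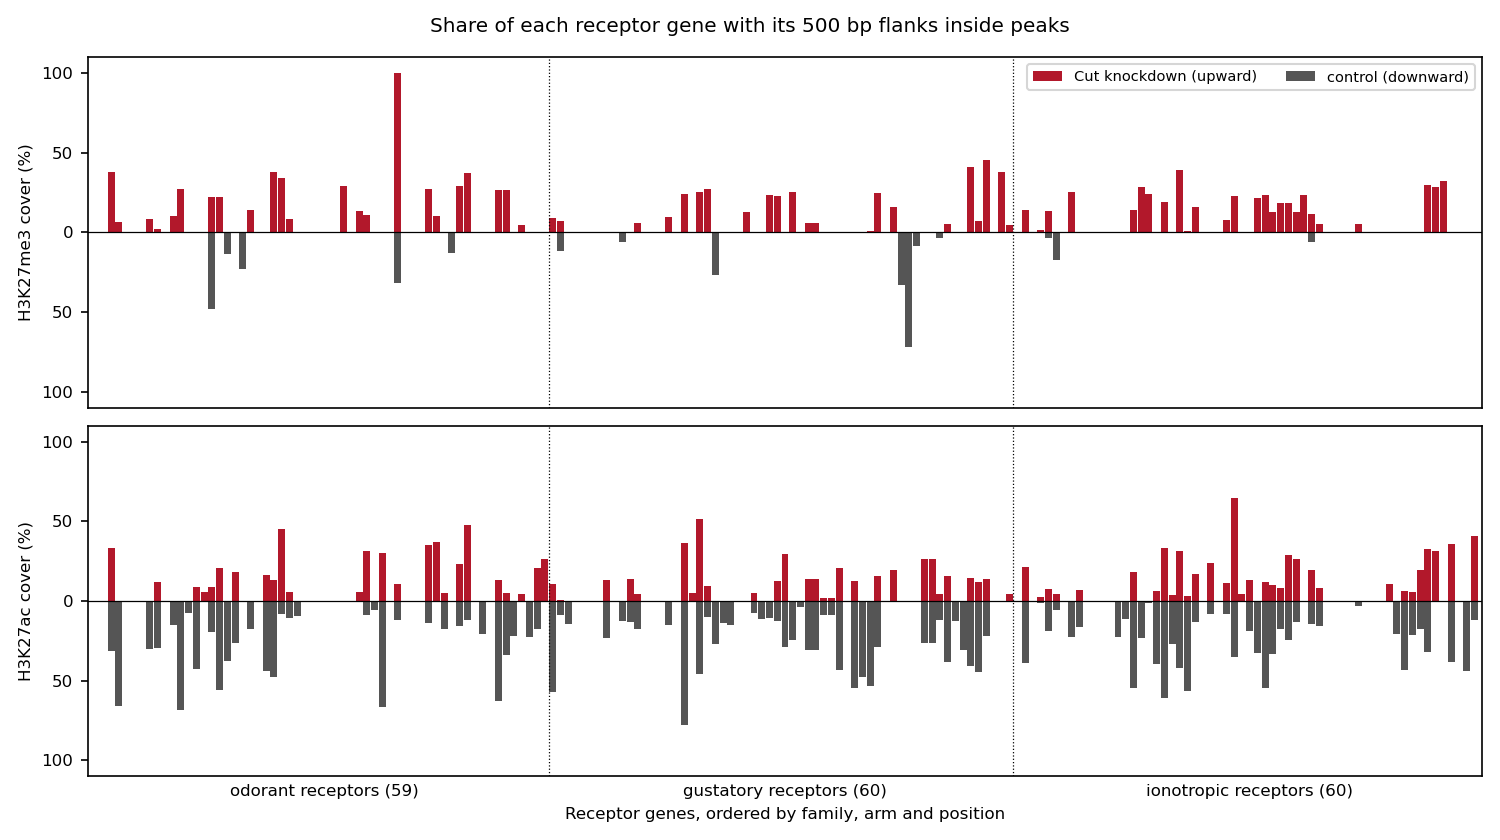
Percent of each of the 179 receptor genes with its 500 bp flanks inside H3K27me3 peaks (top) and H3K27ac peaks (bottom), with Cut knockdown drawn upward in red and control downward in grey, ordered by family, arm and position. H3K27me3 bars are mostly upward, with downward ones at 16 genes, the longest at Gr93c (71.8%) and Or45b (47.8%). H3K27ac bars are mostly longer downward.

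More receptor genes had an H3K27ac than an H3K27me3 peak in each genotype, although in the knockdown the summed length was 52.8 kb of H3K27ac and 55.3 kb of H3K27me3. It lay on 74 genes in both lists (41.3%, against 69.7% of all genes), on 11 in the knockdown only (6.15%, 3.11 to 10.7%, against 7.17% of all genes) and on 37 in the control only (20.7%, 15.0 to 27.3%, against 10.4% of all genes and 12.8% of those of 1 to 3 kb). Fewer bases were covered in the knockdown at 90 genes (50.3%, against 59.1% of all genes) and more at 32 (17.9%, against 28.0%). Mean cover was 8.16% in the knockdown and 16.0% in the control, a difference of -7.88 points, and over all genes it was 19.0% in the knockdown and 26.3% in the control, a difference of -7.25 points. Limited to peaks with folds of 2 or more, the receptor difference was 2.17 points, against 6.36 points over all genes. Such peaks lay on 64 receptor genes in the knockdown and 27 in the control (35.8 and 15.1%, against 71.2 and 43.7% of all genes). Limited to a -log10 q of 2 or more, the difference was -0.72 points on receptor genes and 1.17 points over all genes. H3K27ac covered at least 50% of the body of 5 genes in the knockdown (2.79%, against 15.2% of all genes) and of 20 in the control (11.2%, against 22.8%).

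The largest deficits of H3K27ac in the knockdown after Ir41a (-11.9 kb) were at Ir75d (0.478 kb in the knockdown and 2.14 kb in the control), Or23a (none and 1.59 kb) and Or42b (none and 1.58 kb). Or42b is the receptor of vinegar-responsive antennal neurons, and Ir75d responds to pyrrolidine. Gr21a followed at 0.373 kb in the knockdown and 1.945 kb in the control, then Ir62a at 0.088 and 1.59 kb. Ir11a and Gr77a had none in the knockdown, against 1.39 and 1.36 kb in the control. Gr43a had 1.20 kb in the knockdown and 2.56 kb in the control, and Or46a, a receptor for phenols in the maxillary palp, had 0.791 and 2.13 kb. Among the genes with more H3K27ac in the knockdown, Ir7f had 0.968 kb there and no peak in the control. Or85f and Or19a had 0.874 and 0.625 kb in the knockdown, also against no peak in the control. The other excesses in the knockdown were 0.902 kb at Or59c, 0.861 kb at Ir68b, 0.817 kb at Or94b, 0.782 kb at Ir20a, 0.563 kb at Or74a, 0.561 kb at Or85e and 0.515 kb at Ir67b. Or19a and Or19b are near-identical copies whose reads may not be told apart, and Or19b had 0.487 kb in the knockdown and 0.415 kb in the control.

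Genes with broad roles in chemosensation were then read one by one. All 4 ionotropic co-receptor genes had H3K27ac in the knockdown and in the control, as did 69.7% of all genes. Ir8a, the partner of acid-sensing receptors, had 1.73 kb in the knockdown and 1.87 kb in the control. Ir25a, the most widely expressed co-receptor, had 1.17 and 2.11 kb. Ir76b, a partner in amine and taste sensing, had 0.322 and 0.699 kb, and Ir93a, a partner in temperature and humidity sensing, had 0.733 and 1.47 kb. Each of the 4 had less in the knockdown, as did 59.1% of all genes. Orco, which the symbol rule does not take in, had 1.11 kb in the knockdown and 1.47 kb in the control and no H3K27me3 in either. H3K27me3 was present in the knockdown only on Ir25a (0.775 kb), Ir76b (0.738 kb) and Ir93a (0.499 kb), and on Ir8a in neither list. Over all genes 57.3% had it in the knockdown only. Other-family genes overlap the flanked spans of Ir8a, Ir25a and Ir93a, RpS30 among them at Ir93a, and no such gene lies at Ir76b.

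The CO2 receptor is formed by Gr21a and Gr63a. Gr21a had H3K27me3 over 0.308 kb and Gr63a over 0.652 kb in the knockdown, and neither had a peak in the control. For Gr63a H3K27ac was absent from the knockdown list and covered 0.642 kb in the control, so the marks at this gene were in opposite lists. All 9 sugar receptor genes had H3K27ac in the control and 8 of them in the knockdown, against 80.1 and 76.9% of all genes. Of the 9, the 6 from Gr64a to Gr64f lie next to each other and share peaks where their spans overlap. Gr5a, the trehalose receptor, had 0.336 kb in the knockdown and 1.28 kb in the control. Gr61a, a glucose receptor, was the only sugar receptor gene with more in the knockdown (0.962 kb, against 0.929 kb in the control). Gr43a, a fructose receptor that also serves as a nutrient sensor in the brain, had 0.800 kb of H3K27me3 in the knockdown and no peak in the control. The bitter co-receptor gene Gr66a had no peak in any list. Gr33a, also of bitter neurons, had H3K27ac over 0.148 kb in the knockdown and 0.592 kb in the control, and Gr32a had 0.390 and 0.367 kb. Of the temperature and humidity receptors, Ir21a, needed for cool sensing, had no peak. Ir40a, for dry air, had H3K27ac over 0.658 kb in the knockdown and 0.384 kb in the control, and Ir68a, for moist air, 0.480 and 0.349 kb.

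**Figure D3:**
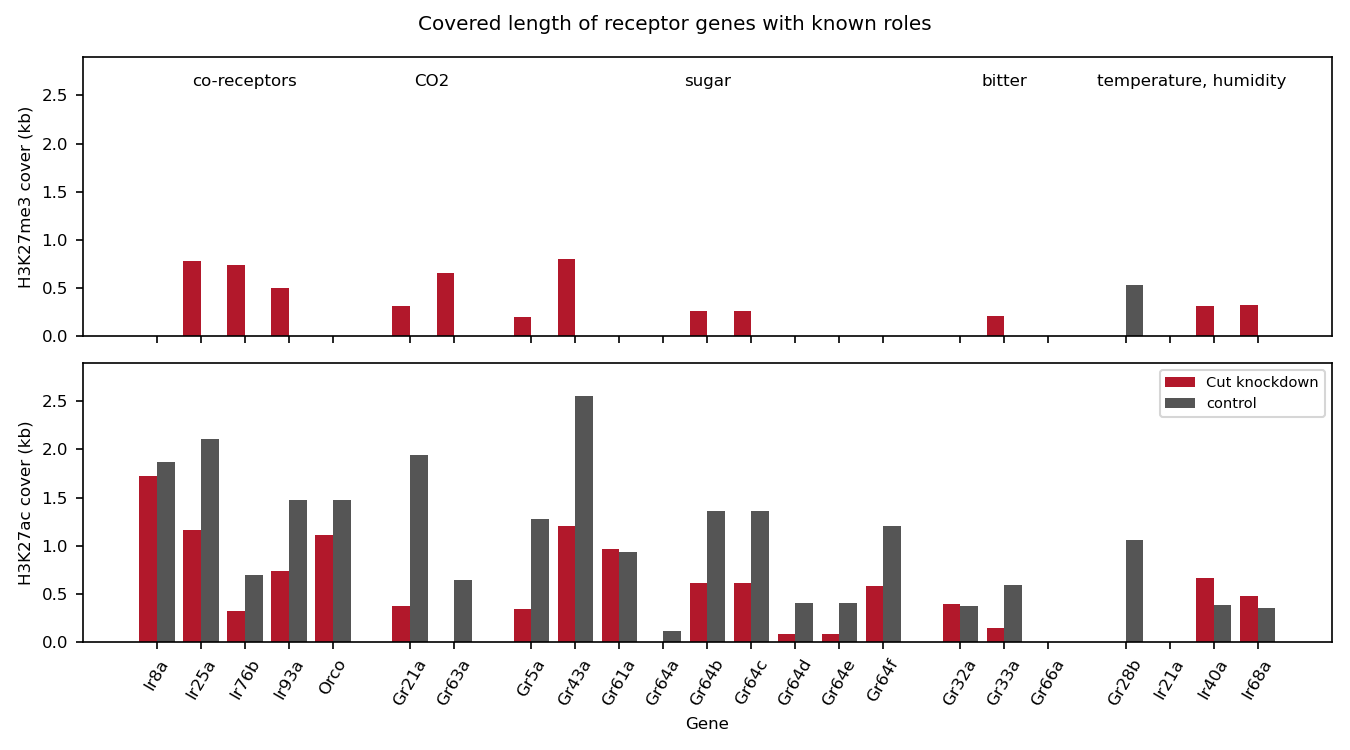
Covered length in kb of H3K27me3 (top) and H3K27ac (bottom) on co-receptor, CO2, sugar, bitter, temperature and humidity receptor genes with their 500 bp flanks, Cut knockdown in red left of control in grey. All 5 co-receptor genes have less H3K27ac in the knockdown, as do 59.1% of all genes, and Gr28b is the only gene shown with H3K27me3 in the control.

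The intervals of the 3 families for the share of genes marked overlap in each list, which does not show that the families are alike. H3K27me3 in the knockdown touched 23 of 59 odorant, 22 of 60 gustatory and 26 of 60 ionotropic receptor genes, and in the control 5, 8 and 3. H3K27ac touched 25, 28 and 32 in the knockdown and 33, 39 and 39 in the control. The genes without any peak numbered 18, 13 and 17. Over all genes the shares were 68.1 and 12.2% for H3K27me3 and 76.9 and 80.1% for H3K27ac, with 10.2% without any peak. In the same order of families, the mean H3K27me3 difference was 7.05, 3.76 and 7.37 points, and 4, 7 and 1 genes had less H3K27me3 in the knockdown. The mean H3K27ac difference was -7.03, -10.0 and -6.58 points. Antennal ionotropic receptors, which serve olfaction, temperature and humidity, had H3K27ac at 10 of 13 genes in the knockdown and 10 of 13 in the control (76.9% each, near the 76.9 and 80.1% of all genes). H3K27me3 lay on 9 of these 13 in the knockdown (69.2%, against 68.1% of all genes), among them Ir64a (0.807 kb), a receptor for acids, and Ir84a (0.651 kb), a receptor for food-derived aromatics that promotes courtship. It lay on 2 in the control, Ir41a and Ir92a, the ammonia receptor. Of 25 odorant receptor genes used by larvae, 11 had H3K27ac in the knockdown and 17 in the control (44.0 and 68.0%, against 76.9 and 80.1% of all genes), and 11 and 3 had H3K27me3 (44.0 and 12.0%, against 68.1 and 12.2%). By arm, no receptor gene on 3L or X had H3K27me3 in the control, which allows shares of up to 10.003 and 13.7% by the exact interval, where 11.8 and 6.92% of all genes on these arms had it. In the knockdown 15 of 35 and 11 of 25 had it (42.9 and 44.0%), against 69.0 and 61.4% of all genes on these arms. These 2 arms were picked after the values were seen, and the other arms differed. Mean control H3K27me3 cover of receptor genes was 2.88% on 2R, 3.99% on 3R and 0.588% on 2L. Over all genes on those arms it was 1.84, 2.57 and 5.19%.

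H3K27me3 and H3K27ac were next compared gene by gene. Of the 85 genes with H3K27ac in the knockdown, 52 also had H3K27me3 there (61.2%, 50.0 to 71.6%), against 19 of the 94 without H3K27ac (20.2%, 12.6 to 29.8%). All protein-coding genes were split in the same way, with 79.0% and 31.8%. In the control 11 of 111 genes with H3K27ac (9.91%, 5.05 to 17.0%) and 5 of 68 without it (7.35%, 2.43 to 16.3%) had H3K27me3, and these intervals overlap. The same control split gave 13.6 and 6.60% over all genes, and 5.75 and 6.45% over genes of 1 to 3 kb. Both marks in the same genotype touched 29.1% of receptor genes in the knockdown and 6.15% in the control, against 60.7 and 10.9% of all genes. By bases, 33.0% of the H3K27me3 on receptor genes lay inside H3K27ac peaks in the knockdown and 29.3% in the control, against 35.8 and 25.9% over all genes. Among the 65 genes with H3K27me3 in the knockdown only, 41 had H3K27ac in the knockdown and the control (63.1%, against 84.3% over all genes with H3K27me3 in the knockdown only). A further 6 had it in the knockdown only (9.23%, against 4.87%), 14 in the control only and 4 in neither (6.15%, against 3.01%). The 14, with H3K27me3 and H3K27ac in opposite genotypes, were Or23a, Or33b, Or42a, Or42b, Or49b, Gr39a, Gr59e, Gr63a, Ir7g, Ir48c, Ir56c, Ir56d, Ir75c and Ir94e. They made up 21.5% of the 65 genes (12.3 to 33.5%), near the 20.7% of all 179 receptor genes with H3K27ac in the control only. The share over all genes with H3K27me3 in the knockdown only was 7.80%, and over those of 1 to 3 kb 9.55%. The 4 with no H3K27ac in either genotype were Or67d, the receptor for the male pheromone cis-vaccenyl acetate (0.710 kb of H3K27me3 in the knockdown), Ir87a (0.904 kb), Gr10b (0.917 kb) and Gr59b (0.275 kb). Peaks in all 4 lists were found at Gr22f, Ir41a, Ir92a, Or45b and Or85a (2.79%, against 9.27% of all genes).

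Neighbouring genes lie within the stretches counted, and a peak there cannot be assigned to either gene. A gene of another family overlaps the flanked span of 74 receptor genes (41.3%), whereas 80.4% of all genes have another gene within that reach. Receptor neighbours were not counted for receptor genes, while any gene was counted for all genes, so these shares are not like for like. Of the 105 receptor genes free of such neighbours, 34 had H3K27me3 in the knockdown and 10 in the control, and 40 and 55 had H3K27ac. These shares were 32.4 and 9.52% for H3K27me3 and 38.1 and 52.4% for H3K27ac, against 59.0 and 19.0% and 62.2 and 67.8% of the 2725 protein-coding genes with no other gene in reach. Some of the 105, such as Ir52a and Ir52b, still have another receptor gene in reach, while the 2725 have no gene at all there. No peak of any list touched 38 of the 105 (36.2%, 27.04 to 46.1%), against 18.2% of those 2725. Among the 74 with a neighbour, 10 were without a peak (13.5%, 6.68 to 23.5%). By bases, the parts of the flanked spans inside other-family genes (101.6 kb, of which 56.1 kb are also receptor gene span) were covered by H3K27ac over 11.8% in the knockdown and 24.2% in the control. In receptor gene spans free of such genes the figures were 8.71 and 16.2%, and in flanks outside any gene 3.78 and 10.9%. For H3K27me3 the same 3 zones had 12.7, 8.87 and 3.80% in the knockdown and 1.75, 2.17 and 0.612% in the control.

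Cover was then followed outward from both ends of each gene, without regard to strand. In the knockdown, H3K27me3 covered 7.81% of bases in the outermost 500 bp of receptor genes and 6.44% in the first 500 bp outside. It covered 12.8% at 2 to 5 kb and 13.1% at 5 to 10 kb. H3K27ac in the knockdown followed the same course, with 8.51, 5.83, 12.2 and 13.1%. In the control H3K27ac had 16.4, 14.5, 19.0 and 19.5%, and H3K27me3 stayed between 1.27 and 2.11%. Cover was thus lower at receptor genes than some kb away from them, other than for control H3K27me3. All genes of 1 to 3 kb had 25.4% H3K27ac cover in their outermost 500 bp, 14.9% in the first 500 bp outside and 16.3% at 5 to 10 kb in the knockdown, and 31.2, 22.2 and 23.6% in the control. Their gene ends were thus above the distant zone, unlike those of receptor genes, while the first 500 bp outside were below it in both sets.

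**Figure D4:**
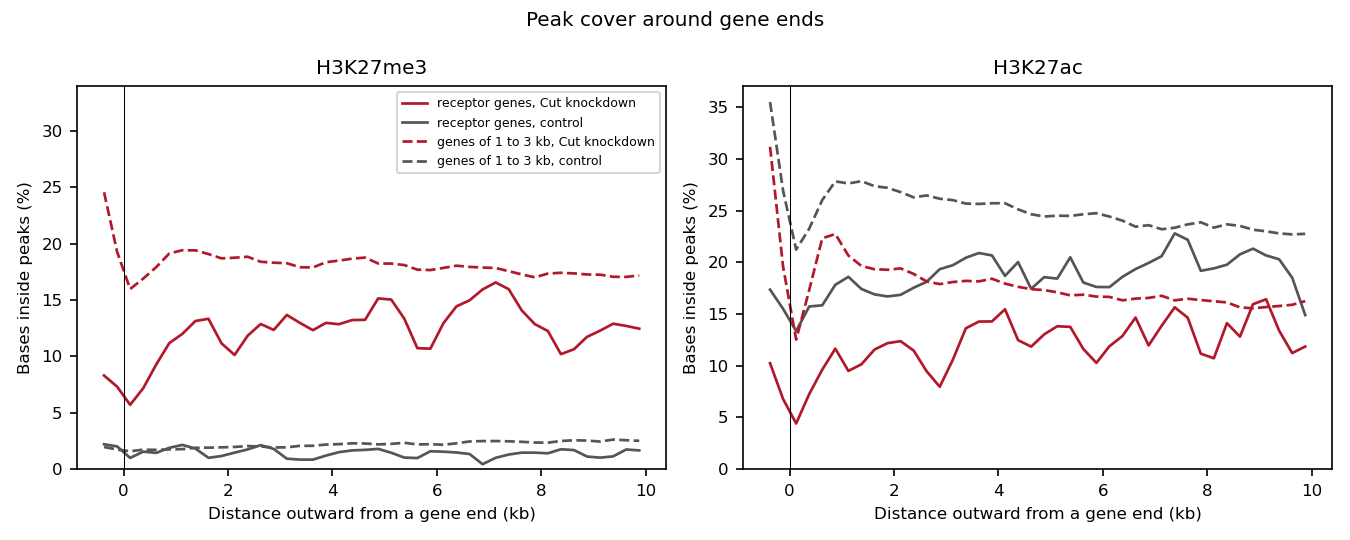
Percent of bases inside H3K27me3 peaks (left) and H3K27ac peaks (right) by distance in kb outward from either gene end, negative inside the gene, in bins of 250 bp. Solid lines are the 179 receptor genes and dashed lines all genes of 1 to 3 kb, with Cut knockdown in red and control in grey. Within the gene and in the first 2 kb outside, receptor genes lie below genes of like length of the same genotype for knockdown H3K27me3 and for H3K27ac, most so inside the gene.

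Many receptor genes stand in tandem. With gaps of up to 5 kb and no other protein-coding gene starting between, 75 genes formed 26 arrays of 2 to 6 genes, and 104 stood alone. No peak of any list touched 28 of the 75 (37.3%, 26.4 to 49.3%), against 20 of the 104 that stood alone (19.2%, 12.2 to 28.1%) and 10.2% of all genes. Genes of an array can share a peak, which the intervals leave out. The array rule allows no other protein-coding gene to start between members, although a gene that starts before an array may run across it. Receptor genes with an other-family neighbour were less often without a peak (13.5 against 36.2%). The part of such neighbours in this contrast was not tested. No peak lay on 6 arrays or within 500 bp of them: Ir52a to Ir52d, whose genes act in leg taste neurons, Gr36a to Gr36c, Ir94a to Ir94c, Ir94f to Ir94h, Or22a to Or22b and Or85b to Or85c. The array from Ir7c to Ir7g (X:7874394-7886976), which holds the high-salt receptor gene Ir7c, had 2.77 kb of H3K27me3 in the knockdown and none in the control. Its H3K27me3 lay in separate peaks at Ir7e, Ir7f and Ir7g. H3K27ac covered 2.62 kb of this array in the knockdown and 1.97 kb in the control. The sugar receptor array from Gr64a to Gr64f (3L:4026769-4037575) had 1.195 kb of H3K27ac in the knockdown and 2.86 kb in the control, and 0.254 kb of H3K27me3 in the knockdown only. Gr64b and Gr64c have the same span, as do Gr10a and Or10a, and Gr64d and Gr64e share 3563 bp, so their values are not independent. At Or94a and Or94b, expressed together in a larval neuron, H3K27me3 covered 1.49 kb in the knockdown and none in the control, and H3K27ac 1.60 and 0.621 kb. At Or59b and Or59c, H3K27me3 covered 1.83 kb in the knockdown and none in the control, and H3K27ac 1.44 and 1.45 kb. Other-family genes overlap the flanked spans of both pairs, Nha2 at Or94a and Or94b and CG43795 at Or59b and Or59c. From Gr58c to Gr58a the control alone was marked, with 0.609 kb of H3K27me3 and 0.965 kb of H3K27ac.

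**Figure D5:**
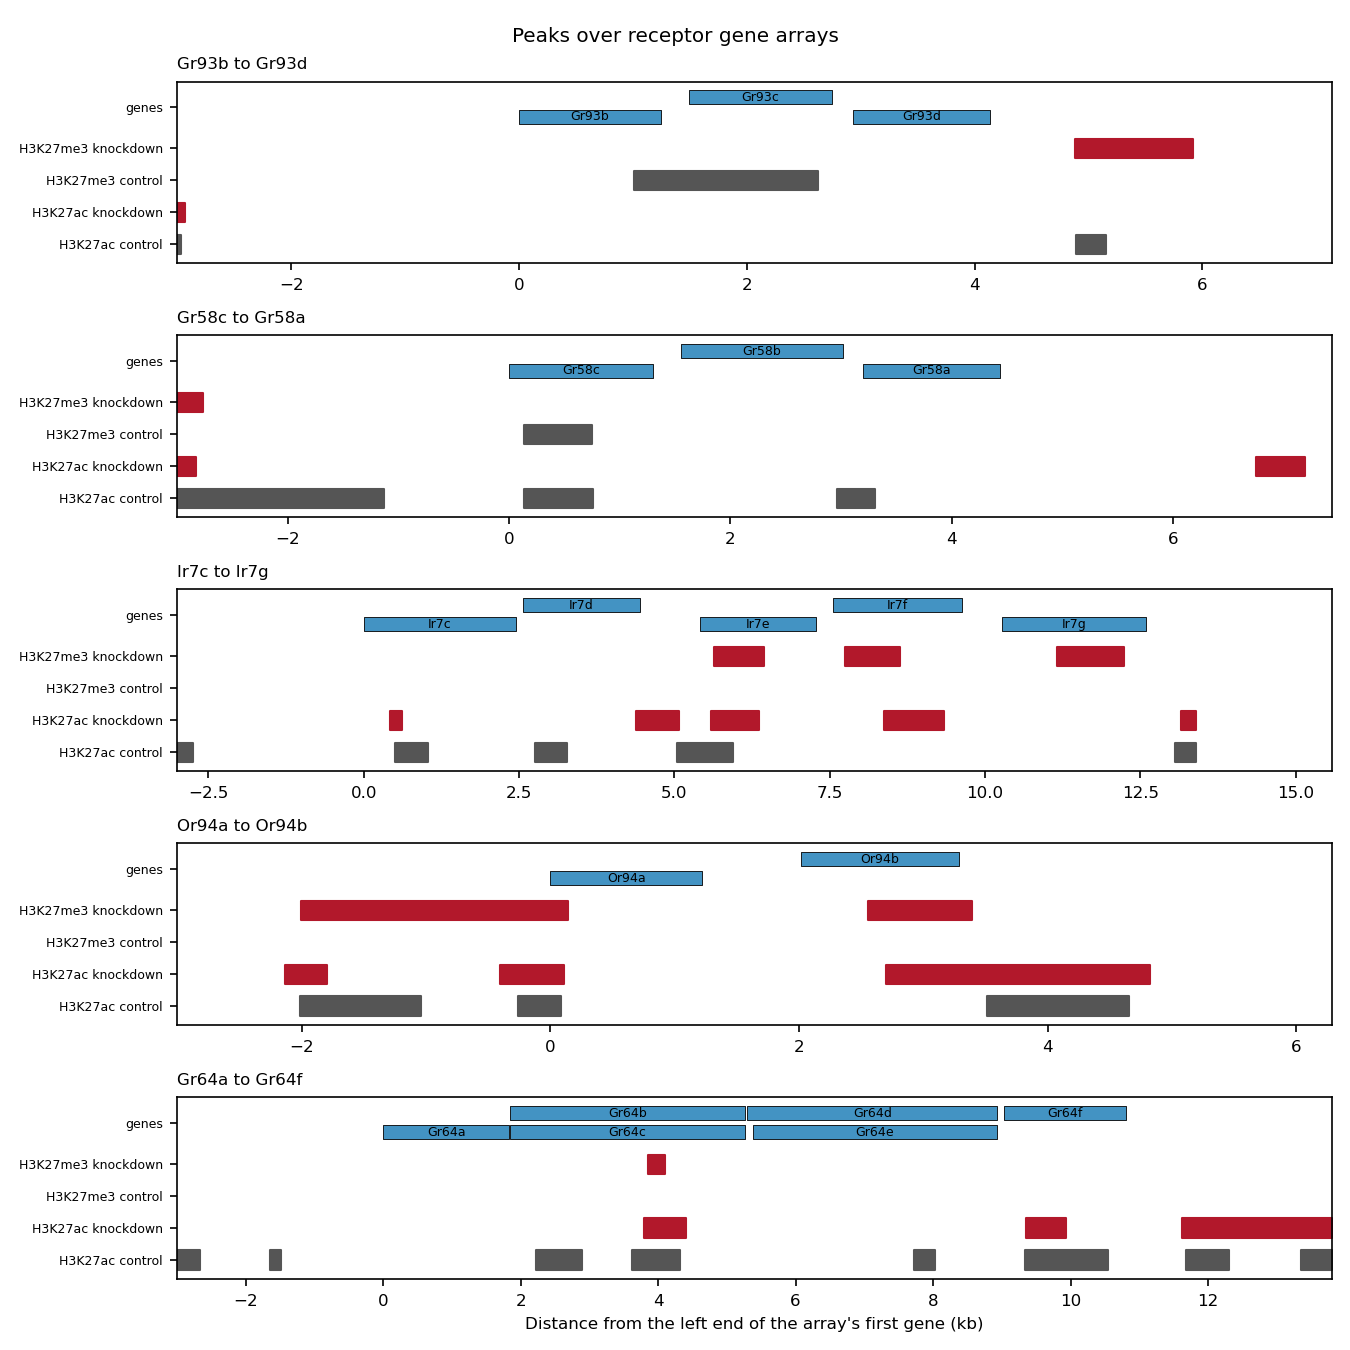
Peaks (bars) of the 4 lists over 5 receptor gene arrays, with genes in blue and distance in kb from the left end of the first gene, Cut knockdown in red above control in grey for each mark. The Gr93 panel shows the single control H3K27me3 peak of 1617 bp, and the Ir7 panel the H3K27me3 peaks of the knockdown at Ir7e, Ir7f and Ir7g. Peaks are drawn out to 3 kb beyond each array.

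Peaks on receptor genes were slightly weaker than their lists by the deposited values. Median deposited folds were 1.85 on receptor genes and 1.89 in the whole list for knockdown H3K27me3, and 1.79 and 1.86 for control H3K27me3. For H3K27ac they were 2.07 and 2.13 in the knockdown and 1.89 and 1.93 in the control. A -log10 q of at least 2 was reached by 13 of 83 knockdown H3K27me3 peaks on receptor genes (15.7%, against 27.9% of the list) and by 2 of 19 in the control (10.5%, against 22.3%), both at Ir41a. For H3K27ac it was reached by 18 of 115 peaks in the knockdown (15.7%, against 20.1%) and by 20 of 155 in the control (12.9%, against 19.9%). The highest H3K27me3 folds in the knockdown were 2.33 at Gr33a (2L:12138931-12139139) and 2.29 at Or33b and Or33c, which share a peak, at ranks 744 and 918 of the list by fold. In the control they were 2.09 at Ir41a and 2.00 at the peak from Gr93b to Gr93d. The strongest H3K27ac peaks on receptor genes in the knockdown were at Ir68b (3.12, rank 220 of 25519) and Ir93a (3.06), and both of these genes have other-family neighbours in reach, the RNA-binding protein gene yps at Ir68b. Or71a followed at 2.58. In the control they were at Gr97a (2.59, rank 133 of 25941), Ir68b (2.29) and Gr85a (2.27).

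Genes that act with the receptors were read in the same way. Of 13 accessory genes of chemosensation, among them Orco, the sensory neuron membrane protein genes and pheromone-sensing channels of the ppk family, 7 had H3K27ac in the knockdown and 6 in the control (53.8 and 46.2%, against 76.9 and 80.1% of all genes). H3K27me3 lay on 6 of the 13 in the knockdown and on 1 in the control (46.2 and 7.69%, against 68.1 and 12.2% of all genes). The 1 gene was Rdl, which encodes a GABA receptor (0.395 kb in the knockdown and 1.47 kb in the control). Transcription factor genes known for receptor choice or for forming olfactory neurons carried H3K27me3 at 11 of 12 in the knockdown and 9 of 12 in the control (91.7 and 75.0%, against 68.1 and 12.2% of all genes). Their mean cover was 43.7% in the knockdown and 20.6% in the control, against 19.5 and 2.51% over all genes. The median was 34.1 and 6.97%, against 12.1 and 0% over all genes. Long genes are counted more readily, since 1 bp is enough. These 12 genes span 262 kb with flanks, and no genes of like length were set beside them. The POU factor gene acj6, which selects odorant receptors, had 5.68 kb in the knockdown and 0.722 kb in the control, and its relative pdm3 had 18.3 and 1.87 kb. The proneural gene ato, which founds ionotropic receptor neurons, had 2.22 and 0.915 kb, and Poxn, which specifies taste bristles, 9.36 and 5.20 kb. The gene amos, which founds olfactory sensilla, had 0.858 kb in the knockdown and none in the control.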

How the data were processed

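H3K27me3 and H3K27ac were profiled by chromatin immunoprecipitation and sequencing in sorted nuclei of Cut knockdown and control embryos, 1 library per group. Per the labels' protocols, micrococcal nuclease (15 U) and 3 min of sonication fragmented the chromatin, and input DNA was the control. The submitters' processing notes name Bowtie2, FastQC, SICER and MACS2, with dm6 as build. Versions, thresholds and the treatment of duplicate or multiply matching reads are not stated there or in the labels. The deposited files are broad peak lists per library. Fold enrichment over background is the authors' deposited ratio, each peak's -log10 p and -log10 q are the authors' own, and the deposited score is 10 times the -log10 q, so only fold and -log10 q were used, to rank and filter peaks within a list. The lowest -log10 q was 1.01 in each list. Depth is unknown, and where no peak is listed the mark may be present below the authors' cutoff.

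Peaks on 6 arms were kept, and 818 on Y were left out. Gene spans came from a RefSeq table of the same assembly, release 6, which gives no strand. Covered bases of each gene with 500 bp on either side were counted from merged peaks with Python 3.11.15 and pandas 2.3.3, and the counting was tested on simulated peaks. Exact Clopper-Pearson intervals came from scipy 1.17.1. No test between genotypes was made. Named genes were the co-receptors, the CO2, sugar, bitter, temperature and humidity receptors, the 10 largest excesses and deficits of each mark in kb, genes with peaks in all 4 lists, and the 3 highest folds of each list. Genes outside that rule were named after their values were seen. Of 14 accessory genes listed, 13 matched the table, and Os-E was not analysed here. The members and lists were chosen with earlier results of these data known.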

Additional observations from a re-analysis of the deposited data

How the results depend on the processing

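With 1 library per group no replicate could be left out, and depth is unknown, so the settings below stand in for it only in part. No paired analysis was possible because each group has 1 library. Counts of receptor genes with H3K27me3 in the knockdown only, H3K27me3 in the control only, H3K27ac in the knockdown only and H3K27ac in the control only were 65, 10, 11 and 37, and the mean differences, knockdown minus control, were 6.06 points for H3K27me3 and -7.88 points for H3K27ac. Limited to a -log10 q of 2 or more, the counts were 14, 1, 12 and 12 (19.6, 0.467, 18.4 and 10.7% of all genes), and the differences 1.56 and -0.72 points (4.27 and 1.17 over all genes, so H3K27ac has the opposite sign there). Limited to folds of 2 or more, they were 14, 1, 45 and 8 (21.0, 0.417, 31.9 and 4.38% of all genes), and the differences 1.77 and 2.17 points (4.56 and 6.36). With the longer list of each mark trimmed to the covered length of the shorter one, which lowers H3K27me3 of the knockdown and H3K27ac of the control by construction, they were 6, 15, 37 and 20 (7.99, 6.56, 19.6 and 6.13% of all genes), and the differences -0.81 and -0.49 points (0.69 and 0.034). Among the 105 genes with no other-family gene in reach they were 30, 6, 5 and 20 (42.3, 2.31, 9.61 and 15.2% of all genes with no gene in reach), and the differences 2.80 and -4.44 points (13.1 and -5.60), a fall in counts that fewer genes bring by construction. Without H3K27me3 peaks that overlap H3K27ac of either genotype, H3K27me3 was left on 15 genes in the knockdown only (8.38%, against 8.17% of all genes) and on 6 in the control only (3.35%, against 2.35%), and the difference was 0.59 points (0.53 over all genes). The sign of both differences depends on the peak set, and where the setting's construction does not show the cause, the cause was not tested. Counts stayed within 1.5 times, and differences kept their sign, with the gene span alone, with 2000 bp on either side and with at least 200 bp covered. The same held in 2 settings added after the data were seen, namely overlapping receptor genes counted once and Ir41a left out.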

Other observations

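The symbol rule leaves out 7 receptor pseudogenes on the arms. With 500 bp flanks, H3K27me3 covered 0.937 kb at Ir56e and 0.226 kb at Ir51a in the knockdown, and none of the 7 had H3K27me3 in the control. H3K27ac covered 0.681 kb at Ir60c in the knockdown, and in the control 1.13 kb at Ir60c, 0.477 kb at Ir56e, 0.222 kb at Ir60f and 0.032 kb at Or98P. Ir47b and Ir48a had no peak in any list.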
